A study of Mus musculus with 16 samples.

Results

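Microglial genes, 9 in number, were followed in whole cortex and in astrocyte ribosomes of naïve mice and of mice that had just been through a swim stress. The members are Cx3cr1, P2ry12, Csf1r, Tmem119, C1qa, C1qb, C1qc, Cd68 and Ptprc. They were chosen by symbol, each was found once in every table, and they make 9 of the 24060 genes listed. All mice were C57BL/6J carrying Aldh1l1CreERT2-RiboTag, an allele pair in which tamoxifen lets astrocytes put an HA tag on the ribosomal protein Rpl22. By the labels, tamoxifen was given at 2 months and the somatosensory cortex was taken at 3 months. The study's methods give a shorter gap, of 2 weeks from the last injection. Stressed mice swam in a bucket of water for 20 min and rested in the home cage for 90 min, and naïve mice stayed in the home cage. INPUT libraries hold the RNA of the cleared lysate, from all cells, and IP libraries hold the RNA that came down with the HA tag. There were 4 libraries each of naïve INPUT, stress INPUT, naïve IP and stress IP, from 8 mice by the study's methods. The labels do not tie an IP library to the INPUT library of the same mouse. The Cre that switches on the tag is under the control of Aldh1l1, so the tag marks cells in which that gene was active at the time of tamoxifen.

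Microglia are the resident macrophages of the brain. They depend on signalling through the receptor tyrosine kinase Csf1r, which binds Csf1 and Il34, and they survey the tissue with purinergic receptors such as P2ry12, which senses ADP, and with Cx3cr1, the receptor for the neuronal chemokine Cx3cl1. They are also the main source in brain of C1q, the recognition part of the classical complement pathway, which is built from the products of C1qa, C1qb and C1qc. Tmem119 encodes a membrane protein used as a marker of resident microglia. Cd68 encodes a lysosomal membrane protein of phagocytes, and Ptprc encodes CD45, a tyrosine phosphatase carried by white blood cells in general. In bulk tissue, fewer cells of a type and less RNA per cell cannot be told apart.

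C1qa, C1qb and C1qc share a cluster of 18675 bases on chromosome 4 of GRCm38, and the other members lie on chromosomes of their own. In the GENCODE M21 annotation C1qb is at chr4:136880129-136886187, C1qc at chr4:136889804-136893065 and C1qa at chr4:136895917-136898803, all on the minus strand. P2ry12 (chr3:59216272-59262871, minus strand) lies wholly inside the body of Med12l, which runs on the other strand, but the exons of the pair do not overlap. Cd68 is at chr11:69664213-69666153, Tmem119 at chr5:113793729-113800516 and Ptprc at chr1:138062861-138175708. The annotated body of Cx3cr1, chr9:119901616-120069879, takes in several other genes through 1 long transcript, again without shared exons. Whether reads were counted by strand is not given in the sources used here.

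RefSeq promoter sequence (GRCm38.p6) was at hand for 6 of the 9 genes and not for Tmem119, Csf1r and C1qa. The 250 bases before the start of 4 of them are shown, because these are the windows that hold AGGAAGT or its reverse complement ACTTCCT, letters that contain the core bound by PU.1 (Spi1), the transcription factor of the macrophage lineage. The motif was picked with the promoters in view, the search covered both strands, and capitals mark the matches. Starts are those of RefSeq and can differ from the GENCODE positions. The Ptprc window lies inside the gene body given above, and the C1qc window lies partly inside its gene body.
C1qb, chr4:136886201-136886450, minus strand: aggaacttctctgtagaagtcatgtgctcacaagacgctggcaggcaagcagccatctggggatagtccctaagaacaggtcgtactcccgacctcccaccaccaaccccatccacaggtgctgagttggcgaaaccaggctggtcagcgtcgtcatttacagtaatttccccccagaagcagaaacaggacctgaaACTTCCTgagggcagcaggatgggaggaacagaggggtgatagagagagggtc
C1qc, chr4:136892915-136893164, minus strand: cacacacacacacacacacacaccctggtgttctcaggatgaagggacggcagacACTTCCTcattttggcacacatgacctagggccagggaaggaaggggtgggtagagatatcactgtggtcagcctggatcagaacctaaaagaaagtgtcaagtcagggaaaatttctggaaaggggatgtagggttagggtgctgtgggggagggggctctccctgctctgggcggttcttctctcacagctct
P2ry12, chr3:59262986-59263235, minus strand: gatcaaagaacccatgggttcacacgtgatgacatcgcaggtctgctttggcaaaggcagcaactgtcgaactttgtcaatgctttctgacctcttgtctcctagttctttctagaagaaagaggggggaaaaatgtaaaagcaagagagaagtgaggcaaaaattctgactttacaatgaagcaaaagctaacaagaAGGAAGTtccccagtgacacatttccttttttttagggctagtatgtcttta
Ptprc, chr1:138175306-138175555, minus strand: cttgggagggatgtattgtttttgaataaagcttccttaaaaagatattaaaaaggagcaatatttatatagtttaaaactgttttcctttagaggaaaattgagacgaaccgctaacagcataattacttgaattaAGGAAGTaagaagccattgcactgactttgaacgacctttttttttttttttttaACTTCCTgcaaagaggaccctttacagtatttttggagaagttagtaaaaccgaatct
The match nearest the start was that of P2ry12, whose first base lies 52 bases before the start, followed by C1qb at 53 bases, and Ptprc holds 2 matches. A second RefSeq start of Ptprc, whose window overlaps the one shown, is left out. The windows of Cx3cr1 and Cd68 hold none. Of all 32851 promoter windows of this length, 7.69% hold the letters on either strand. A match of letters is a description and does not show that a factor binds.

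Values are CPM, the reads on a gene per 1000000 reads on all genes of the library, obtained from the deposited log2 CPM. Between 16392876 and 25814364 reads fell on genes in each library, so that 3 reads corresponded to 0.116 to 0.183 CPM. In whole cortex all 9 genes were well above this: the sum over the members was 303 to 331 CPM in the naïve INPUT libraries and 293 to 338 CPM in the stress INPUT libraries. The astrocyte list (11 genes, among them Slc1a2, Aldoc, Slc1a3 and Gja1) rose in IP as a whole, with all 11 genes called higher in each treatment. Values of single libraries are given in the order of their numbers, which are 3, 7, 14 and 16 for naïve INPUT, 1, 9, 10 and 12 for stress INPUT, 2, 8, 11 and 13 for naïve IP and 4, 5, 6 and 15 for stress IP.

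Per kilobase of exon, which allows levels of different genes to be compared, the C1q chains stood first in whole cortex. In naïve INPUT C1qa was at 44.9 ± 4.25 CPM per kb, C1qb at 35.0 ± 2.59 and C1qc at 24.8 ± 2.08 (SD, n = 4). P2ry12 followed at 21.6 ± 2.23 and Csf1r at 19.2 ± 1.35 CPM per kb. Cx3cr1 was at 13.4 ± 0.968, Tmem119 at 8.24 ± 0.535, Cd68 at 6.74 ± 0.418 and Ptprc at 0.719 ± 0.0985 CPM per kb. Neighbours in this order did not overlap between libraries, except C1qc with P2ry12 and P2ry12 with Csf1r. The order was different in IP, where P2ry12 came first at 3.20 ± 0.423 CPM per kb in naïve mice and C1qa, at 1.97 ± 0.496 CPM per kb, overlapped with Csf1r and with C1qb. In stress IP P2ry12 was again first, at 3.47 ± 0.820 CPM per kb, but overlapped with C1qa at 1.93 ± 0.935 CPM per kb.

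**Figure D1:**
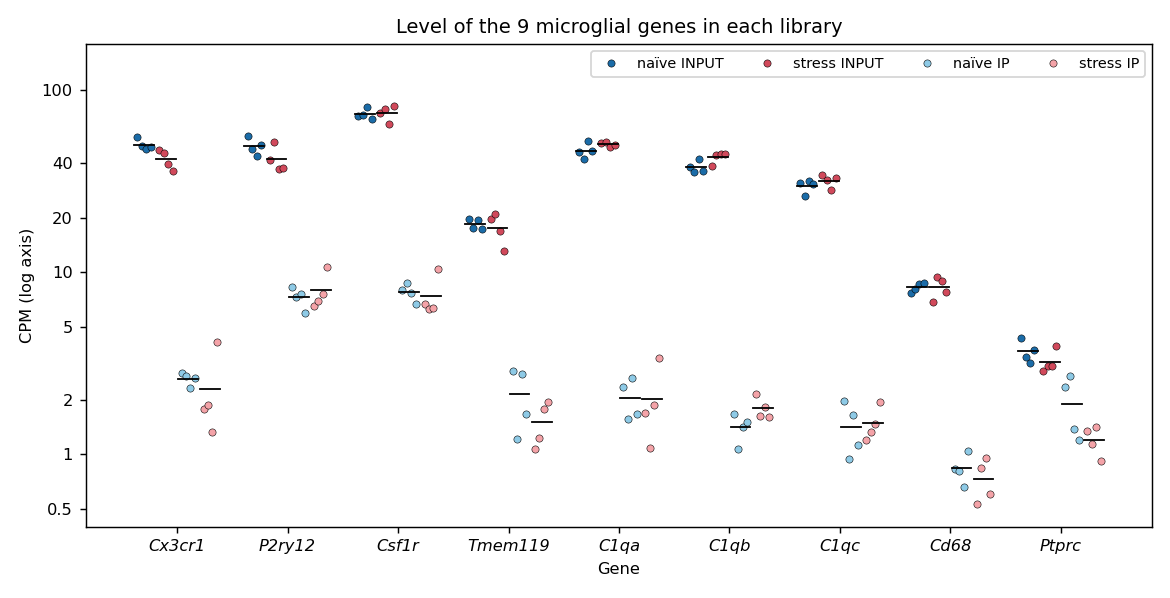
Level of each of the 9 genes in CPM (log axis) in the 4 libraries of each group, with the group mean as a bar. Every IP library lies below every INPUT library of the same treatment for each gene, with the smallest gap for Ptprc.

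Stress IP library 15 held the highest member sum, 35.6 CPM, where stress IP libraries 4, 5 and 6 held 22.4 to 24.6 CPM and naïve IP 23.6 to 31.2 CPM. It was the highest stress IP library for Cx3cr1 at 4.14 CPM, P2ry12 at 10.7, Csf1r at 10.4, C1qa at 3.38, C1qc at 1.93 and Tmem119 at 1.93 CPM, but not for C1qb, Cd68 and Ptprc. The same library had the highest neuron sum of the stress IP group, 846 CPM against 586 to 638 CPM, and the lowest astrocyte sum of all IP libraries, 92337 CPM. Its endothelial and mural sum was also the highest of the group, 170 CPM against 136 to 151 CPM. Its oligodendrocyte sum, 314 CPM, lay within the 298 to 367 CPM of the other stress IP libraries. The border macrophage sum, 6.79 CPM, likewise lay within their 6.11 to 8.79 CPM. The part of RNA from other cells in the member levels was not tested. In naïve IP the highest neuron sum, 901 CPM, was in library 13, which had the lowest member sum. Without stress IP library 15 all 9 members were still called lower in IP in stressed mice and none was called for stress in IP.

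The residual level in IP was asked first, as IP against INPUT within each treatment. In naïve mice all 9 genes were called lower in IP (limma, adjusted p under 0.05), where 64.0% of all 13339 genes tested were called lower, and all 9 had IP values below every INPUT value, as did 61.4% of all genes. In stressed mice all 9 were called lower against 62.5% of all genes, and all 9 did not overlap, against 59.0%. The median log2 ratio of the members was -3.24 in naïve mice, beside -0.64 over all genes, and -3.48 in stressed mice, beside -0.63. Median ratio rescaling moved the all-gene median in naïve mice to -0.0026 and quantile normalization to 0.0077, so changes are to be read relative to that shift. Low members such as Cd68 entered this test only through their INPUT level, so the number that passed the filter says nothing in itself.

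The 3 C1q chains kept the smallest part of their INPUT level. C1qb was at 38.2, 35.8, 42.0 and 36.3 CPM in naïve INPUT and at 1.66, 1.07, 1.41 and 1.51 CPM in naïve IP. Its mean in IP was 3.72% of that in INPUT, and in stressed mice 4.19%. C1qa was at 45.9, 41.9, 52.6 and 46.5 CPM in naïve INPUT and at 2.35, 1.57, 2.62 and 1.67 CPM in naïve IP, or 4.39% of INPUT. C1qc was at 30.9, 26.2, 31.9 and 30.5 CPM against 1.96, 0.941, 1.64 and 1.12 CPM, or 4.75%. The chains thus lay within about 1 percentage point of each other, and in stressed mice C1qa was at 3.96% and C1qc at 4.64%. After stress C1qa was at 51.7, 51.9, 48.9 and 50.0 CPM in INPUT and at 1.69, 1.08, 1.87 and 3.38 CPM in IP. C1qb was then at 2.14, 1.63, 1.83 and 1.61 CPM in IP, and C1qc at 1.20, 1.33, 1.46 and 1.93 CPM. Log2 ratios in naïve mice were -4.67 ± 0.13 for C1qb (SE, limma, adjusted p = 7.63e-13), -4.47 ± 0.16 for C1qa (adjusted p = 4.93e-12) and -4.35 ± 0.19 for C1qc (adjusted p = 5.98e-11). These IP values rest on few reads, 21 to 67 per library for the chains in naïve mice.

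Among the receptors, Cx3cr1 kept nearly as little as the C1q chains, and P2ry12 and Csf1r kept more. Cx3cr1 was at 55.6, 49.6, 47.4 and 48.6 CPM in naïve INPUT and at 2.79, 2.69, 2.31 and 2.63 CPM in naïve IP, a residual of 5.18%. Its log2 ratio was -4.22 ± 0.10 (limma, adjusted p = 9.72e-14). P2ry12 started from nearly the same INPUT level, 55.9, 47.7, 43.7 and 50.2 CPM, and was left at 8.32, 7.35, 7.60 and 6.00 CPM in naïve IP. That is 14.8% of INPUT, with a log2 ratio of -2.74 ± 0.11 (limma, adjusted p = 2.07e-11). In stressed mice Cx3cr1 was at 1.78, 1.87, 1.32 and 4.14 CPM in IP, or 5.42% of INPUT, and P2ry12 at 6.51, 7.00, 7.62 and 10.7 CPM, or 18.9%. Every naïve IP library held more P2ry12 than Cx3cr1, although the INPUT values of the pair overlapped. Csf1r was at 72.5, 72.9, 81.6 and 69.4 CPM in naïve INPUT and at 8.03, 8.73, 7.68 and 6.70 CPM in naïve IP, which is 10.5% of INPUT (chr18:61100598-61132149, plus strand, log2 ratio -3.24 ± 0.09, limma, adjusted p = 5.59e-13). In stressed mice it was at 6.69, 6.31, 6.34 and 10.4 CPM in IP, or 9.89% of INPUT.

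The residual of P2ry12 has a neighbour to be read beside it. Med12l, the gene on the other strand that encloses P2ry12, was at 102 ± 3.40 CPM in naïve INPUT and 42.9 ± 2.34 CPM in naïve IP, or 42.0% of INPUT. P2ry13, the related ADP receptor that also lies inside Med12l, was left at 7.46% of INPUT. Whether reads from Med12l enter the count of P2ry12 was not tested. P2ry13 was named after its values were seen.

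Tmem119 and Cd68 kept about as much of their level as Csf1r. Tmem119 was at 19.7, 17.6, 19.4 and 17.3 CPM in naïve INPUT and at 2.89, 1.21, 2.78 and 1.67 CPM in naïve IP, so its residual was 11.6% with single IP libraries between 6.55% and 15.6%. In stressed mice IP held 1.07, 1.23, 1.78 and 1.93 CPM of Tmem119, or 8.54%. Cd68 was at 7.68, 8.07, 8.63 and 8.80 CPM against 0.832, 0.806, 0.666 and 1.05 CPM, which is 10.1% of INPUT and rests on 17 to 27 reads per IP library. In stressed mice IP held 0.535, 0.838, 0.958 and 0.603 CPM of Cd68, or 8.88%.

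Ptprc stood apart from the other 8. It was the lowest member in whole cortex, at 4.35, 3.41, 3.19 and 3.76 CPM in naïve INPUT, but was left at 2.35, 2.69, 1.37 and 1.20 CPM in naïve IP. The mean in IP was 51.7% of INPUT in naïve mice and 37.2% in stressed mice, where INPUT was at 2.87, 3.08, 3.06 and 3.92 CPM and IP at 1.34, 1.13, 1.41 and 0.924 CPM. In naïve IP, libraries 2 and 8 held the 2 higher values and libraries 11 and 13 the 2 lower ones. The log2 ratio was -0.98 ± 0.25 in naïve mice (limma, adjusted p = 0.0020) and -1.36 ± 0.20 in stressed mice (adjusted p = 4.12e-05). The call in naïve mice was lost under median ratio rescaling (log2 ratio -0.37, adjusted p = 0.17), and under quantile normalization the ratio was 0.04 (adjusted p = 0.88), so the direction of Ptprc depends on the scaling, while the other 8 remained called lower under both. In stressed mice quantile normalization gave -0.24 (adjusted p = 0.26). Higher residuals were not confined to Ptprc among low genes of the microglial identity list followed below. In naïve mice Itgb2 was left at 37.9% and Cd33 at 31.8% of INPUT. Other low genes of the list kept less: Cd53 was left at 5.63%, Slc2a5 at 5.56% and Aif1 at 10.8%. All of these were named after their values were seen. The median log2 ratio of that list was -2.93.

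**Figure D2:**
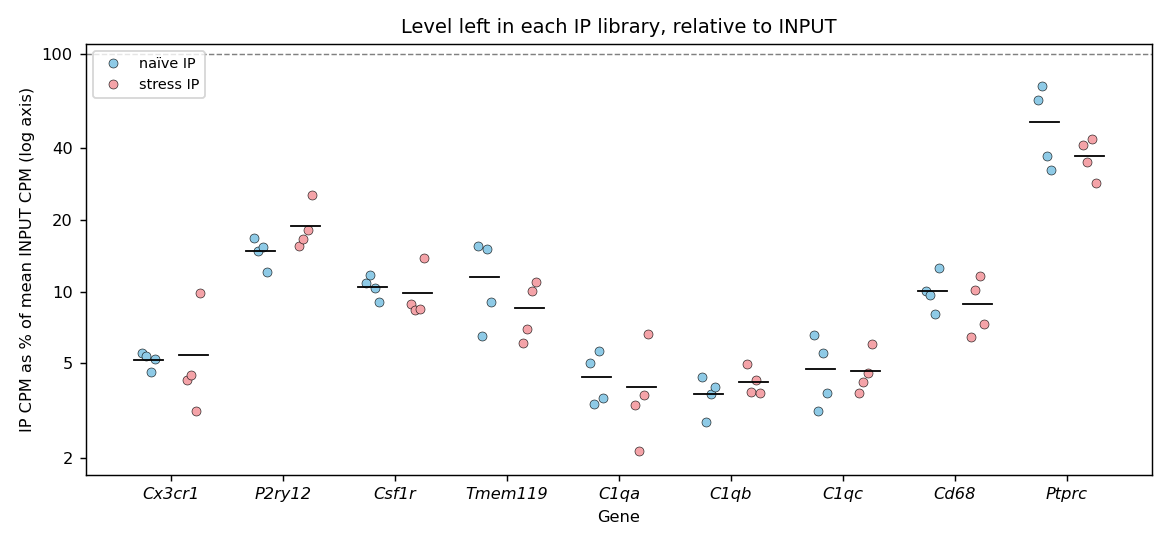
CPM of each gene in each IP library as a percentage of the mean INPUT CPM of the same treatment (log axis); bars are means and the dashed line is 100%. The C1q chains and Cx3cr1 average between 3.72% and 5.42%, P2ry12 14.8% and 18.9%, and Ptprc 51.7% and 37.2% in naïve and stressed mice.

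Whether the members fell evenly was asked from the make-up of the reads on the 9 genes, each gene being given as its share of these reads in a library. This measure does not depend on how libraries are scaled, but the shares sum to the whole and so are not independent of each other. In naïve mice the shares of 7 of the 9 genes did not overlap between IP and INPUT, and in stressed mice those of 6 (for each such gene exact two-sided permutation test, n = 4 against 4, p = 0.029, the smallest the 70 labelings can give, not adjusted). Over all genes tested, CPM did not overlap between IP and INPUT for 83.7% in naïve and 81.4% in stressed mice. Shares were not counted within other sets of genes, so the counts of members are a description only. P2ry12 made 13.2% to 16.9% of the member reads in naïve INPUT and 25.5% to 27.2% in naïve IP. In stressed mice its share was 12.1% to 15.4% in INPUT and 28.3% to 31.2% in IP. Ptprc made 0.966% to 1.32% in naïve INPUT and 4.88% to 9.93% in naïve IP, and 0.902% to 1.27% against 2.59% to 5.83% in stressed mice. Csf1r was higher in naïve IP, at 25.7% to 32.3% against 21.9% to 24.7%, but overlapped in stressed mice (exact permutation p = 0.057).

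The shares that fell were those of Cx3cr1 and the C1q chains, in both treatments. C1qa went from a range of 13.8% to 15.9% in naïve INPUT to 5.79% to 9.34% in naïve IP. C1qb went from 11.5% to 12.7% in INPUT to 3.97% to 6.41% in IP, and C1qc from 8.64% to 9.78% to 3.48% to 6.28%. Cx3cr1 went from 14.3% to 16.8% to 8.23% to 11.2%. Tmem119 and Cd68 overlapped between IP and INPUT in both treatments, with exact permutation p between 0.23 and 0.91. Counting reads per kilobase of exon gave 7 and 6 genes again.

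**Figure D3:**
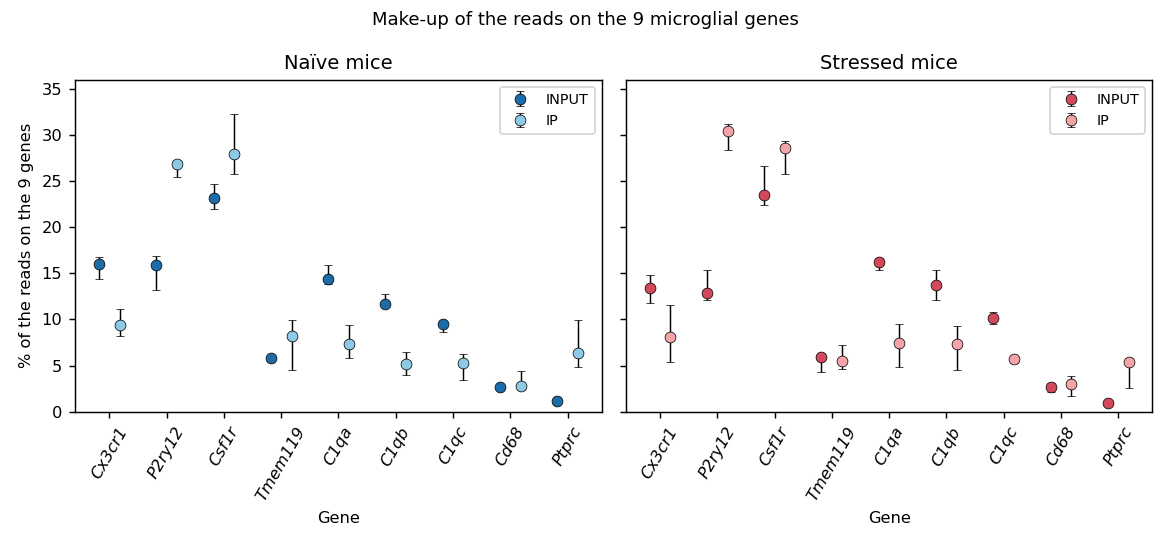
Share of each gene in the reads on the 9 genes, as the median of 4 libraries with bars from the lowest to the highest, in naïve mice (left) and stressed mice (right). P2ry12 and Ptprc take larger shares in IP and Cx3cr1, C1qa, C1qb and C1qc smaller ones, without overlap in either treatment.

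Set beside lists for other cell types, the summed level of the 9 genes in naïve IP was 7.39% to 9.78% of the mean INPUT sum. The neuron list (10 genes, led by Snap25, Syt1, Camk2a and Slc17a7) was at 5.32% to 6.69% and the oligodendrocyte list (10 genes, among them Mbp, Mal and Cnp) at 15.7% to 17.5%. Of the oligodendrocyte sum in naïve IP, Cnp made 148 of a mean of 331 CPM. Cnp rose in IP (log2 ratio 0.37, limma, adjusted p = 7.15e-05) while the other 9 oligodendrocyte genes fell. The median log2 ratio was -3.38 for the oligodendrocyte list and -3.24 for the microglial genes, so their order by summed level does not hold by the median gene. The border macrophage list, 8 genes of perivascular and meningeal macrophages led by Stab1, Mrc1, F13a1 and Cd163, was at 18.9% to 22.1%. The endothelial and mural list (10 genes, led by Vtn, Flt1, Pdgfrb and Rgs5) was at 83.2% to 111%, of which Pdgfrb made 132 of a mean of 182 CPM. Pdgfrb rose in naïve IP (log2 ratio 2.37, limma, adjusted p = 1.29e-12) while 8 of the 9 tested genes of the list fell. The astrocyte list was at 1501% to 1567%.

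**Figure D4:**
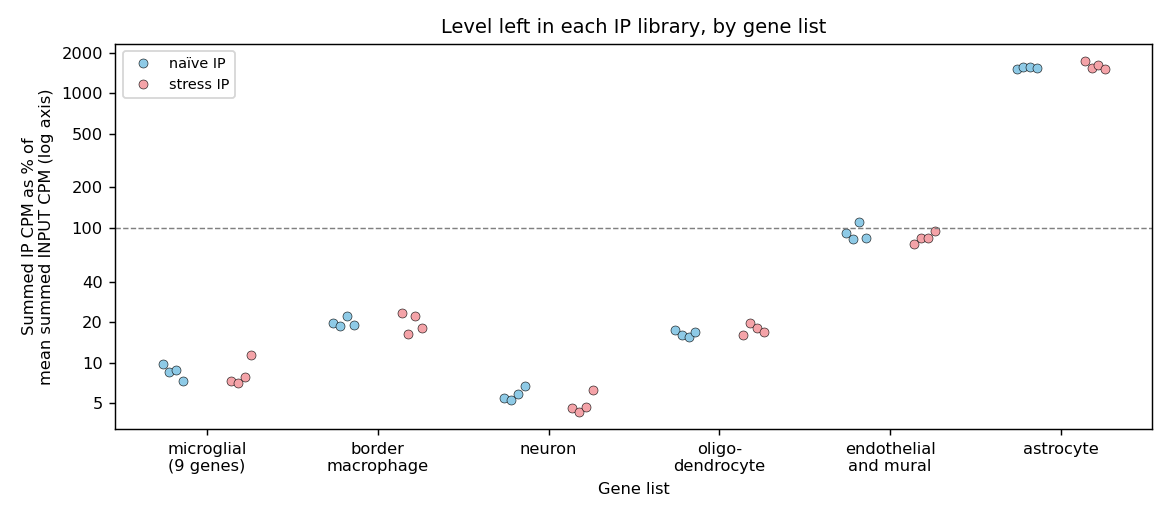
Summed CPM of each list in each IP library as a percentage of the mean summed INPUT CPM of the same treatment (log axis); the dashed line is 100%. The 9 microglial genes lie at 7.14% to 11.3%, above the neuron list and below the border macrophage list in every library.

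Stress in whole cortex was asked next. None of the 9 genes passed the threshold for stress against naïve in INPUT (limma, adjusted p 0.72 or above), where 0.0442% of 13577 genes were called. At an unadjusted p under 0.05 there were 3 members, Cx3cr1, P2ry12 and C1qb, of 683 genes, and limma-voom called 0 members as well. The median log2 difference over the members was -0.01, and 5 of 9 lay below 0. Cx3cr1 was the member whose groups did not overlap, with stress lower, as in 1.44% of all genes. In either direction, 2.87% of all genes did not overlap. Its stress values were 47.2, 45.3, 39.4 and 36.2 CPM, all under the naïve values given above. The log2 difference was -0.26, with a 95% interval of -0.45 to -0.07 and an adjusted p of 0.72 from limma.

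P2ry12, at 41.7, 51.9, 37.0 and 37.4 CPM after stress, overlapped with the naïve libraries through library 9. Its log2 difference was -0.24, with an interval of -0.47 to -0.01 (limma, adjusted p = 0.97). Within the same INPUT libraries the C1q chains lay slightly on the other side. C1qb was at 38.4, 44.1, 44.8 and 44.6 CPM after stress and had a log2 difference of 0.18, with an interval of 0.01 to 0.34 (limma, adjusted p = 0.97). C1qa had a difference of 0.12 (interval -0.03 to 0.28) and C1qc of 0.10 (interval -0.09 to 0.28). The sum of the 3 chains was 104 to 126 CPM in naïve INPUT and 122 to 128 CPM in stress INPUT, which overlap through naïve library 14.

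For the other 4 members the interval of the stress effect in whole cortex took in no change. For Csf1r, at 75.0, 78.9, 65.5 and 81.8 CPM after stress, the fold of stress over naïve was 1.01 with an interval of 0.906 to 1.14. For Tmem119, at 19.6, 20.8, 16.8 and 13.1 CPM, it was 0.940 (0.777 to 1.14), and for Cd68, at 6.89, 9.40, 8.99 and 7.78 CPM, 0.991 (0.827 to 1.19). For Ptprc it was 0.881 (0.690 to 1.12). The intervals of Tmem119, Cd68 and Ptprc reach below 0.833, the fold of Cx3cr1 in INPUT, so they do not exclude a fall of that size. These intervals are per gene and not adjusted for the number of genes.

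**Figure D5:**
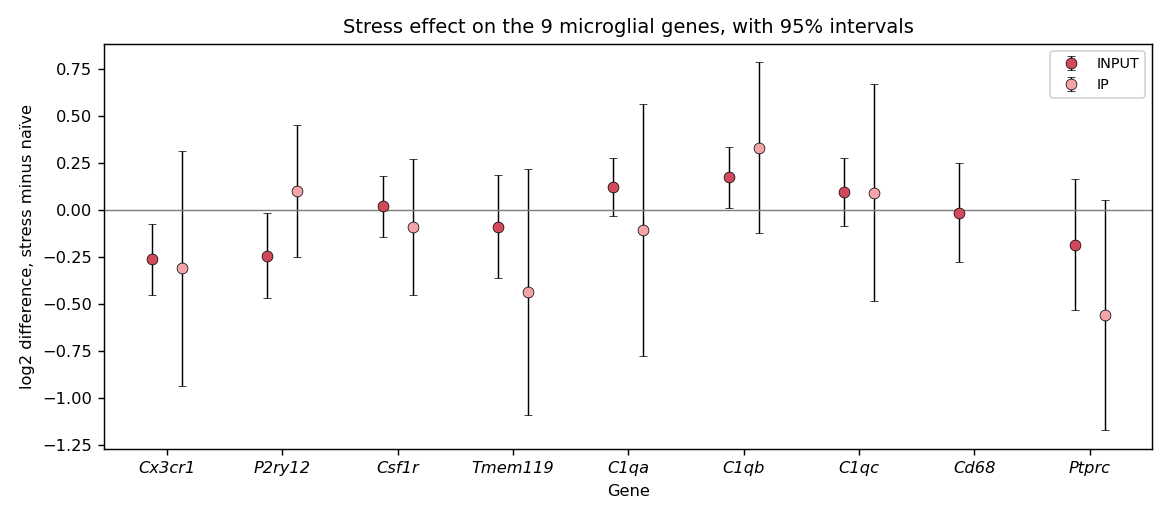
Log2 difference of stress minus naïve with 95% intervals from limma in INPUT and in IP; Cd68 was not tested in IP. In INPUT the intervals of Cx3cr1, P2ry12 and C1qb leave out 0, and none of the genes passed the adjusted threshold.

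In IP, 8 members passed the filter of a mean above 1 CPM and none was called for stress (limma, adjusted p 0.66 or above), where 0.440% of 12501 genes were called. No member had an unadjusted p under 0.05, against 1034 of all genes, and no member's groups failed to overlap, against 5.00% of all genes in either direction. Intervals were wider than in INPUT: the log2 difference of Cx3cr1 was -0.31 (interval -0.94 to 0.32) and that of C1qa -0.11 (-0.78 to 0.56). Without stress IP library 15 they were -0.63 and -0.38, neither called (limma, adjusted p 0.19 and 0.57). Ptprc had the lowest, -0.56 (-1.17 to 0.05), from values of 0.924 to 1.41 CPM against 1.20 to 2.69 CPM. Cd68 was not tested in IP, where single libraries held 0.666 to 1.05 CPM in naïve and 0.535 to 0.958 CPM in stressed mice. The difference between the stress effects in IP and in INPUT was called for none of the 9 (limma, adjusted p above 0.99), where 0.0225% of 13341 genes were called. This comparison uses the same libraries as the effects it is made from.

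Further microglial genes were followed beside the members. Of 30 genes of a microglial identity list, 29 were tested for stress in INPUT and none was called, with a median log2 difference of -0.09 beside -0.0025 over all genes and 4 unadjusted p under 0.05. Among its most abundant genes were Lgmn (lysosomal legumain), Ctss (cathepsin S) and Selplg (a selectin ligand), whose log2 stress differences lay between 0.04 and 0.08. P2ry13 was at 15.1 to 17.9 CPM in naïve and 9.21 to 14.4 CPM in stress INPUT (log2 difference -0.55, limma, adjusted p = 0.28). For IP against INPUT in naïve mice, 27 of 29 tested identity genes were called lower, against 64.0% of all genes, with a median of -2.93. Ctss and Selplg were left at 5.37% and 5.25% of INPUT, like Cx3cr1 and the C1q chains. Lgmn had a log2 ratio of -0.12 in naïve mice (limma, adjusted p = 0.059) and -0.19 in stressed mice (adjusted p = 0.045). These p-values lie on either side of the threshold, and IP and INPUT overlapped in both treatments. Both ratios lie above the all-gene medians of -0.64 and -0.63. Itgb5, an integrin subunit named after its values were seen, rose in naïve mice (log2 ratio 2.29, limma, adjusted p = 5.90e-14).

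Partners of C1q and of the member receptors were measured with a wide range of IP levels. Of 21 complement partners, receptors and regulators, 16 were tested, and none was called for stress in INPUT (limma, 2 at an unadjusted p under 0.05). In naïve mice 4 were called higher and 11 lower in IP, against 3158 and 8540 of all 13339 genes. That split is close to the one over all genes and is not read as a trait of the list. The list was led by Clu (clusterin), which in naïve mice rose in IP (log2 ratio 3.28), and by Csmd1, Csmd2 and Susd4, regulators of complement, which fell by 2.01, 1.80 and 3.64 on the log2 scale (limma, adjusted p 3.57e-07 or below for each of the 4). Of 16 ligands and signalling partners none was called for stress in INPUT or in IP, where 12 were tested, and none had an unadjusted p under 0.05 in either (limma). Cx3cl1, the ligand of Cx3cr1, was at 838 CPM in naïve INPUT and left at 6.32% in IP, and Cd200, a neuronal ligand for microglial Cd200r1, at 4.70%. Sirpa and Gnai2, an inhibitory G protein subunit, were called higher in IP in naïve mice (log2 ratios 0.19 and 1.35, limma). In stressed mice Sirpa was not called (log2 ratio 0.11, limma, adjusted p = 0.13). The microglial activation list was tested in part: of 22 genes 10 were tested in INPUT and none was called for stress (limma, 1 at an unadjusted p under 0.05), the median difference being 0.26 beside -0.0025 over all genes. In naïve mice 6 of 9 tested genes of the list were called higher in IP and 2 lower, against 3158 and 8540 of all 13339 genes (limma). The list is therefore not read as a measure of microglia alone. Its leading genes were Apoe and Axl, which in naïve mice rose in IP (log2 ratios 3.33 and 3.41, limma, adjusted p 2.10e-14 or below), Lpl, which fell (-3.11), and Nfkbiz. The cytokine genes Il1b and Tnf lay at 0.326 and 0.121 CPM in naïve INPUT, where 3 reads correspond to 0.116 to 0.183 CPM.

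Markers of other macrophages and of blood were looked at beside the members. The border macrophage sum was 29.2 to 34.0 CPM in naïve and 31.8 to 42.8 CPM in stress INPUT, and 0 of its 5 tested genes was called for stress (limma, 1 at an unadjusted p under 0.05). Of the blood cell list (15 genes), Lyz2 and Alas2 were tested and neither was called for stress or had an unadjusted p under 0.05 (limma). Hba-a1 and Hbb-bt were at 0 in all libraries, and Hba-a2, Hbb-bs, Cd3e and Cd3d at or near 0. The study kept uniquely mapped reads only, and what this does to the counts of the globin genes was not tested. The amount of blood in the tissue is therefore not read from these values. Alas2, an erythroid haem enzyme, rose in IP in naïve mice (log2 ratio 2.59, limma, adjusted p = 4.58e-07). Lyz2 was left at 58.7% of INPUT in naïve mice, a log2 ratio of -0.79 beside a median of -0.64 over all genes. The part of these cells in the level of Ptprc was not tested. Among the cell type lists Sox9, an astrocyte transcription factor, was the gene called for stress, lower in IP (log2 difference -0.65, limma, adjusted p = 0.0062).

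The members did not vary as 1 block between INPUT libraries. After each treatment group was centred, the 36 pairs of members had a median Pearson r of 0.11 over 8 libraries, from -0.56 to 0.85, and 23 pairs lay above 0. Cx3cr1 and Tmem119 (r = 0.85), C1qa with C1qc (0.75) and Cx3cr1 with P2ry12 (0.75) were the closest. Among the genes whose centred values were most like the mean of the members were Pbx2 (r = 0.99, Spearman rho 0.90), Tceb3 (0.98, rho 0.98), Scarb2 (0.97, rho 0.90) and Pkia (0.97, rho 0.98), out of 11265 genes compared. Without the 2 libraries farthest from the median, r was 0.94 to 0.98 for these genes. Of 20 identity genes compared, 18 had r above 0, with a median of 0.45 beside 0.02 over all genes. These are descriptions of 8 libraries that share depth and dissection, with no test.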

How the data were processed

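RNA of 16 libraries (4 per group) was sequenced by the authors after ribosomal RNA depletion. Per the labels and the study's methods, reads were aligned to mm10 with STAR and counted with HTSeq on RefSeq genes, and edgeR and limma were used; versions are not given in the sources used here. The deposited values are log2 CPM of 24060 genes per library, with a floor of -6.40 that stands for no read. The values were turned back into CPM and reads, and all values up to 1000 reads came out whole within 0.02. No columns of comparisons were present.

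Groups came from the labels. Genes whose mean over the libraries of a comparison exceeded 1 CPM were tested with limma 3.58.1 (R 4.3.3, variance trend) on log2(CPM + 0.1), with Benjamini-Hochberg adjustment over all genes and a threshold of 0.05. Fold changes are on that scale and understate changes of low genes. The script was tested on simulated data. Shares of reads were compared by exact permutation over all labelings (NumPy 2.4.6), and Spearman rho came from SciPy 1.17.1. By the study's methods, INPUT and IP RNA came from the same lysate of each mouse, but the labels do not give the pairs. The fits of IP against INPUT, and of the difference of both stress effects, took the libraries as independent. Their p-values leave out this pairing and rest on the spread between these samples. The 3-read limit covers counting error only. Depth was 16392876 to 25814364 reads on genes.

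The members, gene lists and tests were chosen with earlier results of these data known. Named were all members, up to 4 genes of each list with the highest naïve INPUT level, those called for stress, and the 5 genes most like the members over INPUT libraries, apart from some that are not reported here. Alternatives were other pseudocounts, filters, scalings and models, an Xist covariate, and leaving out each library. Exon lengths and positions came from GENCODE M21 (GRCm38), with lengths from its RefSeq-linked transcripts, and promoters from RefSeq.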

Additional observations from a re-analysis of the deposited data

Results flagged for a closer look

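Among 36 groups of 4 libraries (9 genes in 4 groups), 2 held a library that stood far from the rest by Dixon's test, where chance gives 1.8. Csf1r in stress IP library 15 was at 10.4 CPM, with the other 3 libraries at 6.31 to 6.69 CPM. C1qb in stress INPUT library 1 was at 38.4 CPM, with the others at 44.1 to 44.8 CPM. No member's stress effect was called different between IP and INPUT (limma).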

How the results depend on the processing

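The number of members called for stress was 0 in INPUT, in IP and for the difference of both under every alternative run, leaving out each library included; with a mean above 5 CPM 8, 2 and 7 members were tested. The number called lower in IP was 9 in each treatment, except 8 under quantile normalization in both and 8 under median ratio rescaling in naïve mice, and 7 in both treatments with a mean above 5 CPM, where 7 members were tested, Cd68 and Ptprc not among them. Under the scalings the gene lost was Ptprc: in naïve mice its log2 ratio was 0.0388 under quantile normalization and -0.37 under median ratio rescaling, and in stressed mice -0.24 under quantile normalization. Without naïve IP library 8 the number of shares that did not overlap in naïve mice was 8 instead of 7, and in stressed mice it was 7 instead of 6 without INPUT library 12 or IP library 6. Signs of uncalled stress differences changed in 9 of 170 refits of single members in INPUT, in 5 of 146 in IP and in 18 of 223 for the difference of both. Stress IP library 15 decides the sign for P2ry12 in IP (-0.05 without it), and stress INPUT library 12 that of Tmem119 in INPUT (0.05 without it). Median ratio rescaling and quantile normalization moved the split of all genes in naïve mice from 3158 higher and 8540 lower in IP to 5589 and 5642, and to 5609 and 5515, and in stressed mice from 3143 and 8332 to 5446 and 5524, and to 5567 and 5333. Counts over all genes moved more than those of the members: for stress in INPUT from 6 to 50 with array weights, 0 with no variance trend and 2 with all 16 libraries, for stress in IP from 55 to 143, 19 and 124, and for the difference of both from 3 to 19 with array weights and 2 with no variance trend. Leaving out 1 library gave 1 to 32, 17 to 122 and 2 to 28 genes. No paired analysis was possible because the library numbers are unique and the labels do not tie IP to INPUT. With 21 to 67 reads on a C1q chain per naïve IP library, small differences between IP groups were not detectable.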
